A study of Mus musculus with 8 samples.

Results

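The neutrophil granule and calprotectin genes were followed in whole blood taken from cobalt chloride (CoCl2) mice and control mice, on Affymetrix Mouse430 2.0 arrays. The set was given as 11 probe sets for 10 genes, of 45101 probe sets in all, by probe set ID. It holds the calprotectin subunits S100a8 and S100a9, the specific granule genes Lcn2, Ltf and Ngp, the gelatinase gene Mmp9 (2 probe sets), and the azurophil granule genes Mpo, Elane, Prtn3 and Ctsg. Gene names were given with the IDs, since no deposited file links the IDs to genes.

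The CoCl2 group held 4 arrays, from mice supplemented with 200 ng CoCl2 per 100 ml per day. The control group held 4 arrays from mice that the titles call chamber controls, while the protocol text given with the CoCl2 samples places treated and control mice alike under room conditions. Blood was drawn from the vena cava after 15 days, and RNA was taken from 100 μl of it. The day is given with the CoCl2 samples and not with the controls. Strain, sex and age are not stated. Whether the 4 arrays of a group stand for 4 mice is not stated either, and p-values here rest on array-to-array spread, which may be technical. Cobalt ions keep hypoxia-inducible factors from being degraded when oxygen is normal, hence the name chemical hypoxia for this treatment.

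Neutrophils make their granule proteins in waves while they mature in the bone marrow. Azurophil granule proteins such as myeloperoxidase and elastase are transcribed in promyelocytes, specific granule proteins in myelocytes and metamyelocytes, and gelatinase later, toward the band stage. The calprotectin transcripts S100a8 and S100a9 stay abundant in mature neutrophils, so blood normally carries much calprotectin mRNA and little mRNA of the azurophil proteases.

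S100a8, S100a9, Lcn2 and Mmp9 stood far above the controls on the arrays of CoCl2 replicates 3 and 4, and at -0.01 to 1.15 from the control mean on those of CoCl2 replicates 1 and 2. Of the 6 member probe sets that were bright enough to be tested, Lcn2 and 1 of the Mmp9 probe sets rose, where 28.6% of all tested probe sets did. Ngp did not pass the test and Ltf was too dim for it, and the azurophil granule genes stayed at the low end of the scale on all 8 arrays.

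The upstream sequences of 4 members are shown so that those of 3 genes with a shared array order stand beside that of Ltf, which had another order. They are the 250 bases before the RefSeq start on the GRCm38.p6 build, from the gene's own strand, 5′ to 3′, for S100a8 (chr3:90668821-90669070, plus strand), S100a9 (chr3:90695722-90695971, minus strand), Lcn2 (chr2:32387740-32387989, minus strand) and Ltf (chr9:111019042-111019291, plus strand). Capitals mark matches on either strand to TTNNGNAA, a core bound by C/EBP factors, which drive granulocyte maturation.
S100a8: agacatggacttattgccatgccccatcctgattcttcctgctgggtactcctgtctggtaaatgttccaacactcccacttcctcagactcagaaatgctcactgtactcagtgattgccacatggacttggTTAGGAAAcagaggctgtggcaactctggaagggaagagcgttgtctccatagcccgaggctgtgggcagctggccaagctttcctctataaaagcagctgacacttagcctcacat
S100a9: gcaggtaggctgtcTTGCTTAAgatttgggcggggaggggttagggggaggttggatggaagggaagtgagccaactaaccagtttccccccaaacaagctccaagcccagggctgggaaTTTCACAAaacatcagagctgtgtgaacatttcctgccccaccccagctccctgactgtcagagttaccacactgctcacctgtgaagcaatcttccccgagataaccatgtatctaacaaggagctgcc
Lcn2: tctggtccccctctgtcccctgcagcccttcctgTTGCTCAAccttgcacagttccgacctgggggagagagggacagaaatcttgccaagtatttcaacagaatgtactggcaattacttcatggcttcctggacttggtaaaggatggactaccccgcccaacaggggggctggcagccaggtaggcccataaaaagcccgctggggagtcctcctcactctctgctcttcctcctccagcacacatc
Ltf: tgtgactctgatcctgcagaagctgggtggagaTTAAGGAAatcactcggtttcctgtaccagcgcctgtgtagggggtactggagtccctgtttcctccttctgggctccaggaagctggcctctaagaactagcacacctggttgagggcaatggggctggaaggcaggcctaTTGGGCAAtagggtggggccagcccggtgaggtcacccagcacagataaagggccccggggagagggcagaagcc

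The RefSeq table held a window for 9 of the 10 genes, all but Mmp9. TTNNGNAA was found in the windows of 5 genes, S100a8, S100a9, Lcn2, Ltf and Ngp, and in 36.8% of the 32851 windows of the table. Each azurophil gene lacked these letters in its window. GAGGAA, letters bound by the myeloid factor PU.1, stood in 7 of the 9 windows and in 23.3% of all windows. ACGTG, a form of the core of the hypoxia-response element, stood in 1 of the 9 windows, that of Ngp, and in 16.6% of all windows. The other form of that core, GCGTG, was not searched for, so these shares do not cover it. Both strands were searched for each motif, no match of one motif was barred from overlapping another, and a match is a description of letters, not a bound site. Ltf and Ngp, whose differences were small, hold TTNNGNAA 2 and 3 times. S100a8 and S100a9 are direct neighbours on chromosome 3, and Prtn3 and Elane are direct neighbours on chromosome 10.

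Values are log2 expression per probe set after GCRMA, recovered from deposited numbers that lack the decimal point, and none of the member cells was ambiguous. The median probe set stood at 2.79 to 2.80 on CoCl2 arrays and at 2.84 to 2.89 on control arrays. Probe sets with a mean of at least 2.90 over all arrays were tested with limma, and 6 of the 11 member probe sets, for 5 genes, met that minimum. The lowest control mean among these 6 was 3.96, so none entered the test only through the CoCl2 arrays. The bacterial RNAs bioB and bioC, added at hybridisation, stood at a mean of 11.34 ± 0.13 with CoCl2 and at 13.16 ± 0.22 without (SD, n = 4 each), or -1.82 as a log2 difference (two-sided exact permutation p = 0.0286, the lowest p that 4 against 4 arrays allow, and 0.0857 after Benjamini-Hochberg adjustment over 3 quality values). The 3′ minus 5′ difference, which grows as RNA breaks down, was 1.68 ± 0.08 for beta-actin with CoCl2 and 1.88 ± 0.10 in controls (SD, n = 4 each, exact permutation p = 0.0571). That of Gapdh was 1.75 ± 0.19 with CoCl2 and 1.55 ± 0.12 in controls (SD, n = 4 each, exact permutation p = 0.114). Their part in the results was not tested. No processing batch is labelled, so one that coincides with the groups cannot be told apart from them. The numbers in the sample titles form a separate series for each group, and what they stand for is not stated.

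A principal component analysis of all tested probe sets set the groups apart on component 1, which held 71.8% of the variance. The CoCl2 arrays lay there between -81.95 and -70.85, and the control arrays between 49.35 and 100.84. Arrays of a group also differed among themselves beyond the member genes. On component 2, which held 8.05% of the variance, CoCl2 replicates 1 and 2 stood at 37.79 and 28.75, and CoCl2 replicates 3 and 4 at -12.95 and -51.85. The control arrays lay between -15.65 and 6.11 on it. On component 3, with 7.45% of the variance, control replicate 4 stood at -61.58, the other controls lay between 10.38 and 21.53, and the CoCl2 arrays lay between -7.06 and 13.02. Results below are therefore given array by array, and again without each array in turn.

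**Figure D1:**
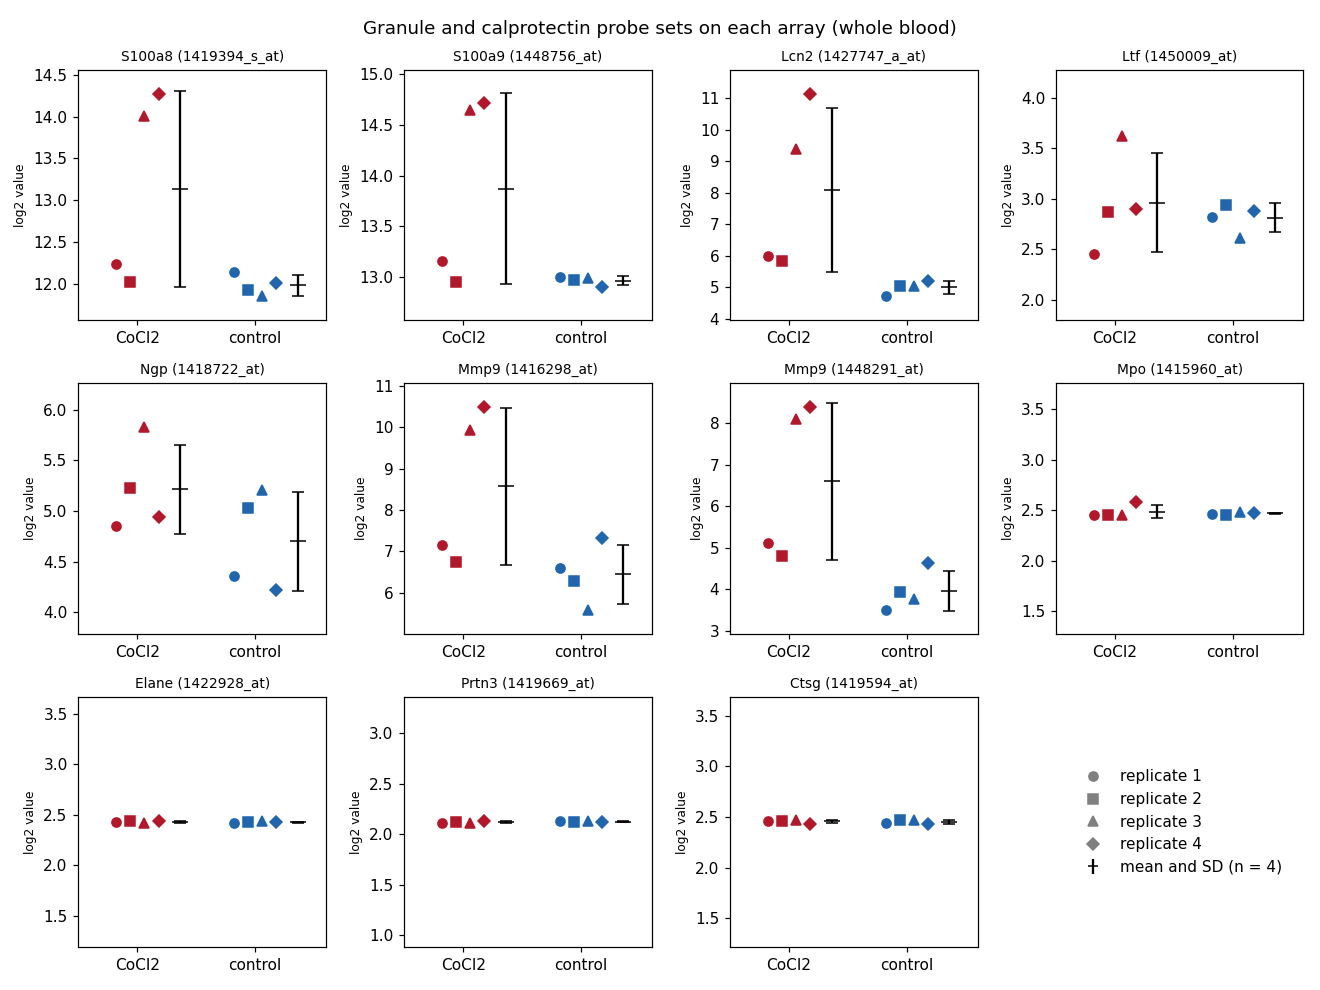
Log2 value of each member probe set on the 4 CoCl2 arrays (red, left) and the 4 control arrays (blue, right), with a marker shape for each replicate number and the mean and SD in black. S100a8, S100a9, Lcn2 and both Mmp9 probe sets are high on CoCl2 replicates 3 and 4, while Mpo, Elane, Prtn3 and Ctsg lie between 2.11 and 2.59 on all arrays.

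S100a8 and S100a9 encode the 2 subunits of calprotectin, which binds calcium, zinc and manganese and makes up much of the neutrophil cytosol. S100a8 had log2 values of 12.237, 12.019, 14.009 and 14.274 in CoCl2 replicates 1 to 4, and of 12.137, 11.926, 11.850 and 12.003 in control replicates 1 to 4. CoCl2 replicates 3 and 4 stood far above all controls, and CoCl2 replicates 1 and 2 lay beside them, so the groups overlapped. The means were 13.13 ± 1.17 with CoCl2 and 11.98 ± 0.12 in controls (SD, n = 4 each), a log2 difference of 1.16 (SE 0.49) that did not pass the test (limma adjusted p = 0.0834). Its probe set, 1419394_s_at, carries the suffix that marks probes shared by several transcripts.

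S100a9 had log2 values of 13.156, 12.951, 14.644 and 14.719 in CoCl2 replicates 1 to 4. In control replicates 1 to 4 it had 12.996, 12.965, 12.990 and 12.896. The same 2 CoCl2 arrays were high, and CoCl2 replicate 2 fell within the control range. The log2 difference was 0.91 (SE 0.40, limma adjusted p = 0.0928). Both subunits were among the brightest probe sets, each at or above the 99.3 percentile of all probe sets on every array.

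The subunits shifted together. Against the control mean, S100a8 stood 0.26, 0.04, 2.03 and 2.29 higher on CoCl2 replicates 1 to 4. S100a9 differed from its control mean by 0.19, -0.01, 1.68 and 1.76 on those arrays. The shift of S100a8 exceeded that of S100a9 by 0.06, 0.05, 0.35 and 0.54, while on control arrays this gap lay between -0.16 and 0.12. In whole blood a change in the number of cells that carry these mRNAs and a change in mRNA per cell cannot be told apart. Which blood cells carried them was not tested.

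Among the specific granule genes, Lcn2 encodes lipocalin 2, which binds bacterial siderophores and so withholds iron. Lcn2 had log2 values of 6.01, 5.83, 9.40 and 11.14 in CoCl2 replicates 1 to 4, and of 4.72, 5.04, 5.03 and 5.19 in control replicates 1 to 4. Every CoCl2 array lay above every control array. The spread among CoCl2 arrays, from 5.83 to 11.14, was wider than the distance between the lower CoCl2 arrays and the controls.

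Lcn2 averaged 8.09 ± 2.61 with CoCl2 and 4.99 ± 0.20 in controls (SD, n = 4 each). The rise was 3.10 as a log2 difference (SE 1.08; limma adjusted p = 0.0423), higher in 4 of 4 CoCl2 arrays than in any control array. The test took 1 variance for both groups, though the SD was far larger with CoCl2. Of 22519 tested probe sets, 7 had a larger positive difference. The difference of log2 means corresponds to 8.56-fold, and the ratio of linear means, which weights the brightest arrays more, was 23.7-fold.

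The call for Lcn2 was lost without any of 6 arrays. It was kept without CoCl2 replicate 1 or CoCl2 replicate 2, the CoCl2 arrays nearest the controls (limma adjusted p = 0.0267 and 0.0213). Without CoCl2 replicate 4 the difference was 2.08 (limma adjusted p = 0.0652), and without CoCl2 replicate 3 it was 2.66 (limma adjusted p = 0.109). Without a control array at a time the adjusted p lay between 0.0676 and 0.0924.

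Ngp, neutrophilic granule protein, is a cathelicidin-related specific granule protein known from mice. Ngp had log2 values of 4.85, 5.23, 5.83 and 4.94 in CoCl2 replicates 1 to 4, and of 4.36, 5.03, 5.21 and 4.22 in control replicates 1 to 4. Only CoCl2 replicates 2 and 3 exceeded all controls, and CoCl2 replicate 4, the highest array for Lcn2, lay inside the control range. The log2 difference was 0.51 (SE 0.29, limma adjusted p = 0.175).

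Ltf encodes lactoferrin, the iron-binding protein of the specific granule. Ltf had log2 values of 2.45, 2.87, 3.63 and 2.90 in CoCl2 replicates 1 to 4, and of 2.82, 2.94, 2.61 and 2.88 in control replicates 1 to 4. CoCl2 replicate 3 was above all other arrays and CoCl2 replicate 1 below them, near the low end of the scale. Its mean of 2.89 over all arrays lay just under the minimum for the test, at the 49.7 percentile. In the fit without a filter, in which 17.7% of 45037 probe sets changed and 10.8% rose, Ltf differed by 0.15 (SE 0.24, limma adjusted p = 0.665). The 3 specific granule genes thus did not share an array order, with Lcn2 highest on CoCl2 replicate 4 and both Ngp and Ltf highest on CoCl2 replicate 3.

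Mmp9 encodes gelatinase B, a matrix metalloproteinase that neutrophils store in gelatinase granules. Probe set 1448291_at had log2 values of 5.12, 4.81, 8.09 and 8.38 in CoCl2 replicates 1 to 4, and of 3.51, 3.95, 3.77 and 4.63 in control replicates 1 to 4. The groups did not overlap, by a margin of 0.18 between CoCl2 replicate 2 and control replicate 4. It averaged 6.60 ± 1.90 with CoCl2 and 3.96 ± 0.48 in controls (SD, n = 4 each), and the rise was 2.63 as a log2 difference (SE 0.81; limma adjusted p = 0.0266).

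The call for 1448291_at was lost without any of 5 arrays, CoCl2 replicates 3 and 4 and control replicates 1, 2 and 3. The limma adjusted p was then 0.0712, 0.0581, 0.0685, 0.0548 and 0.0656, and the log2 difference stayed between 2.04 and 2.63. Without CoCl2 replicate 2 it was 3.23 (limma adjusted p = 0.0127).

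The other Mmp9 probe set, 1416298_at, had log2 values of 7.16, 6.74, 9.93 and 10.48 in CoCl2 replicates 1 to 4. In control replicates 1 to 4 it had 6.60, 6.28, 5.59 and 7.32. CoCl2 replicates 1 and 2 lay below control replicate 4, so the groups overlapped. Its log2 difference was 2.13 (SE 0.84) and did not pass the test (limma adjusted p = 0.0646). On the CoCl2 arrays the shift of 1448291_at from its control mean exceeded that of 1416298_at by 0.44, 0.55, 0.65 and 0.38. In the controls that gap lay between -0.61 and 0.66. Control replicate 4 was the highest control array in both.

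**Figure D2:**
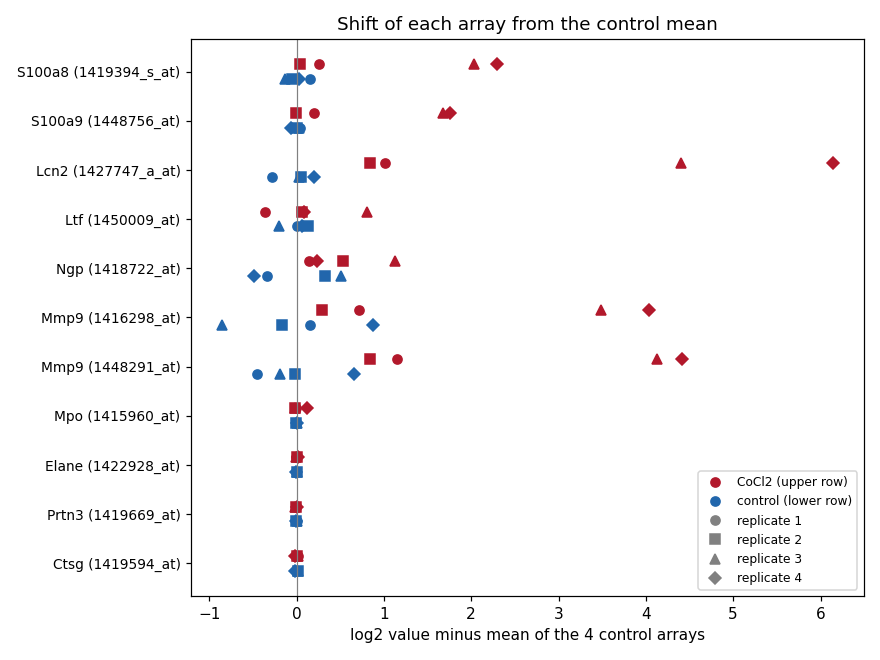
Log2 value of each array minus the mean of the 4 control arrays, with CoCl2 arrays (red) above control arrays (blue) for each member probe set. CoCl2 replicates 3 and 4 lie 1.68 to 6.14 above the control mean for S100a8, S100a9, Lcn2 and Mmp9, and CoCl2 replicates 1 and 2 lie between -0.01 and 1.15.

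The azurophil granule genes encode myeloperoxidase (Mpo), which makes hypochlorous acid, and the serine proteases neutrophil elastase (Elane), proteinase 3 (Prtn3) and cathepsin G (Ctsg). Mpo had log2 values of 2.46, 2.45, 2.45 and 2.59 in CoCl2 replicates 1 to 4, and of 2.46, 2.46, 2.48 and 2.47 in control replicates 1 to 4. CoCl2 replicate 4 was slightly above the rest, and the groups overlapped. The array that was highest for Lcn2 was also the highest for Mpo, by 0.12 over the control mean, at the low end of the scale. On that array Elane, Prtn3 and Ctsg stood at 0.01, 0.01 and -0.02 from their control means.

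Elane lay between 2.42 and 2.44 in CoCl2 blood and between 2.42 and 2.43 in control blood. Prtn3 lay between 2.11 and 2.13 in both groups, and Ctsg between 2.43 and 2.47 in both groups. In the fit without a filter the log2 differences of the 4 azurophil genes ran from -0.01 to 0.02, with limma adjusted p between 0.728 and 0.906. After median centring, on the array medians of the tested, brighter probe sets, they ran from -0.14 to -0.12 and 3 of the 4 passed the threshold. That centring lowers the difference of every probe set by the same amount, which is set by probe sets brighter than these 4. The mean levels of the 4 genes lay at the 18.5 (Mpo), 14.3 (Elane), 1.0 (Prtn3) and 16.4 (Ctsg) percentiles of all probe sets. GCRMA places probe sets with little or no specific signal in that range. A difference in these mRNAs below that level was not detectable.

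Set against all probe sets, the number of member calls was not high. Of the 6 tested member probe sets 2 rose and none fell, and 4 had an unadjusted p under 0.05. Over all 22519 tested probe sets 45.1% changed, 28.6% upward and 16.5% downward. The same 2 member probe sets were higher without overlap, against 27.3% of all tested, and no member was lower without overlap, against 18.3%. The split over all tested probe sets depends on scaling, with 6440 higher and 3722 lower as deposited, 5084 and 4711 after median centring, and 20501 and 519 with bioB and bioC as the scaling reference. The median log2 difference of the 6 was 1.64, against 0.19 over all tested probe sets (0.05 after median centring), and 2 of the 6 belong to Mmp9. The SEs of the 6 ran from 0.29 to 1.08.

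S100a8, S100a9, Lcn2 and Mmp9 had a wide spread within the CoCl2 group, set against all tested probe sets. The SD of Lcn2 over the CoCl2 arrays, 2.61, was exceeded by 1 of 22519 tested probe sets, and the median SD of all tested was 0.25. The SDs of the Mmp9 probe sets, 1.90 each, were exceeded by 0.124% and 0.138% of tested probe sets. That of S100a8, 1.17, was exceeded by 1.01%, and that of S100a9, 0.94, by 1.91%. In the control group 68.0% of tested probe sets had a larger SD than Lcn2, 82.7% than S100a8 and 95.6% than S100a9. For Mmp9 6.19% had a larger control SD than 1416298_at and 21.7% than 1448291_at. The CoCl2 SD was 20.4 times the control SD for S100a9, 13.1 times for Lcn2 and 9.55 times for S100a8, where the median ratio over all tested was 0.87. For Mmp9 it was 3.99 times for 1448291_at, exceeded by 8.34% of tested probe sets, and 2.65 times for 1416298_at, exceeded by 14.7%. Ngp had an SD of 0.44 in the CoCl2 group and 0.49 in the control group.

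**Figure D3:**
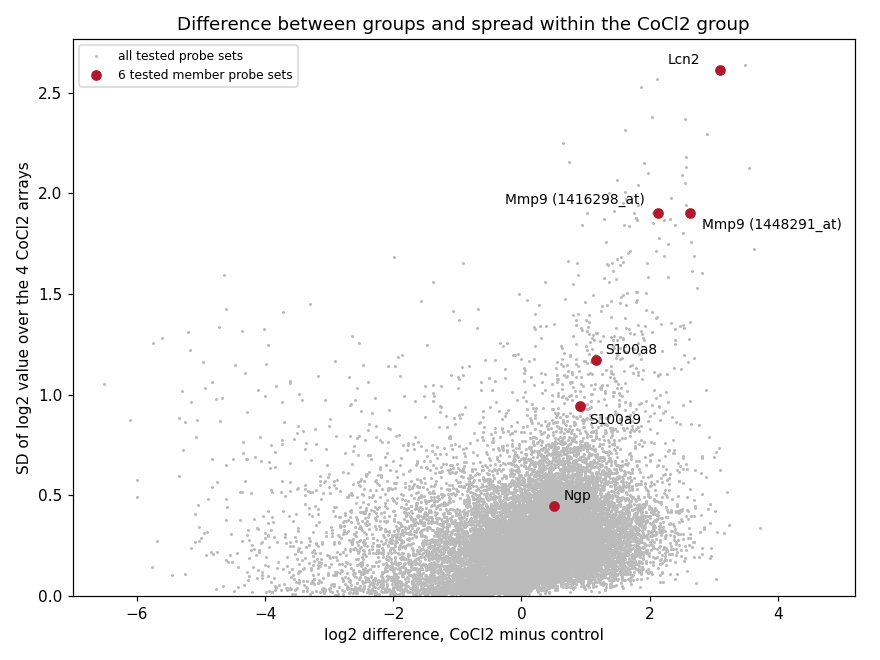
SD of the log2 value over the 4 CoCl2 arrays (vertical) against the log2 difference, CoCl2 minus control (horizontal), for all 22519 tested probe sets (grey) and the 6 tested member probe sets (red). Lcn2 lies near the top with an SD of 2.61, the Mmp9 probe sets at 1.90, S100a8 at 1.17 and S100a9 at 0.94, and Ngp lies in the main cloud at 0.44.

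The order of the CoCl2 arrays was shared too. The 5 probe sets of S100a8, S100a9, Lcn2 and Mmp9 all ran from replicate 4 down through replicates 3, 1 and 2, an order found in 4.89% of all tested probe sets. In the same 5, CoCl2 replicates 3 and 4 each stood at least 1 log2 unit above all 6 other arrays, which held for 1.28% of all tested probe sets. No tested probe set had those 2 arrays at least 1 unit below the other 6. These criteria were chosen after the values were seen, from the members themselves, so they describe the arrays and were not tested. On the same arrays bioB and bioC stood at 11.39, 11.47, 11.17 and 11.32 on CoCl2 replicates 1 to 4, and the 3′ minus 5′ difference of beta-actin at 1.793, 1.612, 1.633 and 1.701.

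The authors' deposited table of a significance analysis (SAM, built on a moderated difference) lists 7 of the 11 member probe sets and none of the 4 azurophil ones. Of these, 6 are higher with a q-value under 5% in the authors' deposited table, as are 47.6% of all probe sets it lists, and 69.1% have such a q-value in either direction. For Lcn2 the authors' deposited table gives a log2 difference of 2.88, a linear ratio of 15.8 and a q-value of 0.146%. For S100a8 these values in the authors' deposited table are 1.13, 2.63 and 0.498%, and for S100a9 they are 0.81, 1.99 and 1.20%. Ltf stands in the authors' deposited table at -0.12 with a q-value of 16.5%, while its linear ratio in the authors' deposited table is 1.05. From the restored values Ltf differed by 0.15 with all arrays and by -0.07 without CoCl2 replicate 3. The calls for S100a8, S100a9, Ngp and Mmp9 1416298_at therefore stand in the authors' deposited table and not in the limma fit. The log2 differences are not the same either. For Mmp9 1416298_at the authors' deposited table gives 1.80, against 2.13 from the restored values, and for Ngp 0.57 against 0.51. Whether the test or the values behind it set the calls apart was not tested.

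**Figure D4:**
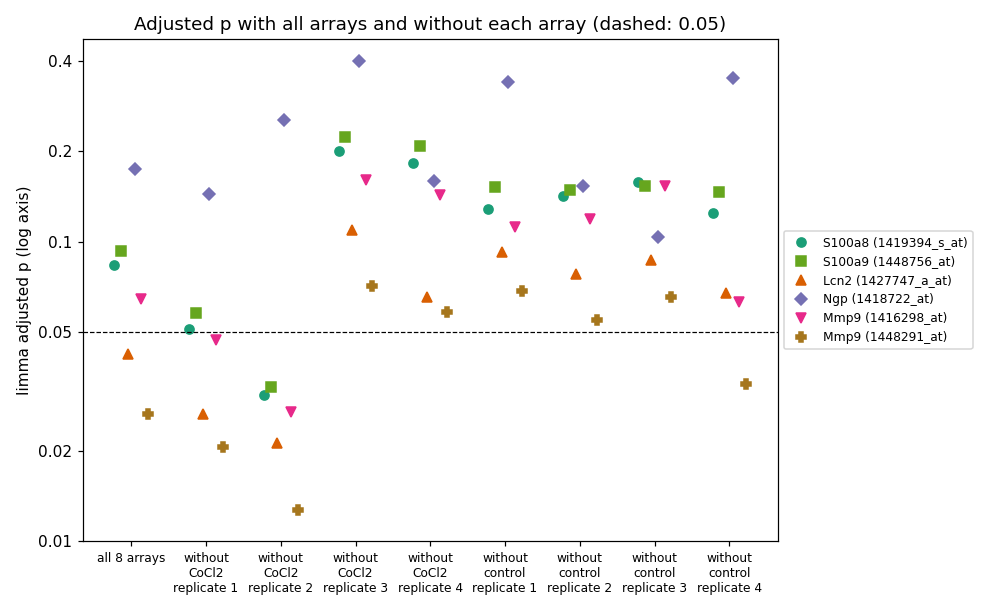
Limma adjusted p (log axis) of the 6 tested member probe sets with all 8 arrays and without each array in turn, with a dashed line at 0.05. With all arrays Lcn2 (0.0423) and Mmp9 1448291_at (0.0266) lie under the line, without CoCl2 replicate 2 every probe set but Ngp does, and without CoCl2 replicate 3 or 4 none does.

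Leaving out 1 array at a time moved the number of member calls over the whole range from 0 to 5 of 6. It was 3 without CoCl2 replicate 1 and 5 without CoCl2 replicate 2. It was 0 without CoCl2 replicate 3, CoCl2 replicate 4 or control replicates 1, 2 or 3, and 1 without control replicate 4. Where the limma count was 0, the members with an unadjusted p under 0.05 numbered 1 without CoCl2 replicate 3 and 2 without each of the other arrays named. All 6 tested member probe sets kept a positive log2 difference in each of these 8 fits.

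By granule class, the mean log2 value of the calprotectin probe sets was 13.50 ± 1.06 with CoCl2 and 12.47 ± 0.07 in controls (SD, n = 4 each). The gelatinase probe sets averaged 7.59 ± 1.90 with CoCl2 and 5.21 ± 0.55 in controls (SD, n = 4 each). The specific granule genes averaged 5.42 ± 1.02 with CoCl2 and 4.17 ± 0.17 in controls (SD, n = 4 each), and the log2 differences behind that were 3.10 for Lcn2, 0.51 for Ngp and 0.15 for Ltf. The azurophil genes averaged 2.37 ± 0.02 with CoCl2 and 2.37 ± 0.01 in controls (SD, n = 4 each). Levels of different classes are not comparable with each other, since each probe set has its own response.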

How the data were processed

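Whole-blood RNA was hybridised to 1 array per sample. Per the submitters' processing notes GCRMA and Partek were used, with no version stated. Each number of the value table deposited by the authors is a score (array medians 268.4 to 276.5) that is a log2 value without its decimal point, or a spreadsheet day number for short values. The points were restored from the digits alone (360808 cells, 404 day numbers, 1275 ambiguous, 0.353%). That the values are log2 is inferred from their range. The authors' deposited SAM table gives a score, a log2 difference, its denominator, a ratio and a q-value in percent, and its settings are not given.

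Of 45037 probe sets without the 64 AFFX controls, the upper 50% by mean (22519) was tested with limma 3.58.1 in R 4.3.3 (lmFit, eBayes, CoCl2 minus control, two-sided, Benjamini-Hochberg, threshold 0.05). Restoration and fit were tested on simulated data. The simulated arrays held 200 changed probe sets, far fewer than were called here. Of simulated rises of 2.0, 1.0 and 0.5 log2 units, the fit called 86%, 42% and 2%. Each simulated probe set had the same SD in both groups, while S100a8, S100a9, Lcn2 and Mmp9 had a larger SD with CoCl2. The changed ones were drawn from all tested probe sets, whose median SE was 0.21 on the real arrays. The tested members had SEs from 0.29 to 1.08, so these shares need not hold for them. A member that did not pass the test may therefore still differ. The number of arrays limits the precision. Members and lists were chosen with earlier results of these data known. All members are named. The marker lists, the other granule gene lists, the likeness search and the comparison of further probe sets per gene need a pairing of probe sets with genes that the files do not give, and are not analysed here. Alternatives changed the filter (none, or stricter) or the scaling (quantile, array medians of the tested probe sets, or bioB and bioC). Others changed limma's options (trended robust prior, array weights, replicate number as block, treat). Further ones changed the cells or arrays used (ambiguous cells missing, 1 array fewer), or took the authors' calls. Upstream windows came from RefSeq tables of GRCm38.p6.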

Additional observations from a re-analysis of the deposited data

Results flagged for a closer look

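Of 22 groups of 4 values of the member probe sets examined, 1 held an array far from the others, and chance gives about 1 in 20. Mpo stood at 2.59 on CoCl2 replicate 4, while the other CoCl2 arrays lay between 2.45 and 2.46, at the low end of the scale.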

How the results depend on the processing

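The number of the 6 tested member probe sets that rose, 2 in the limma fit, depended on the setting. It was 1 after quantile normalization, 4 with the replicate number as a replicate block, 6 with bioB and bioC as the scaling reference, 6 of the 7 listed in the authors' deposited table, and 0 both without a filter (11 tested) and in limma's treat test against 1.5-fold (2 members at an unadjusted p under 0.05 in each). Without 1 array at a time it ranged from 0 to 5. All 6 kept a positive difference in all 19 alternatives each. The replicate numbers do not pair the arrays, since deviations of same-numbered arrays correlated at -0.04 to 0.02 and no CoCl2 array correlated best with its own number. Scaling to bioB and bioC adds the shift of these controls to every probe set and gave class differences of 2.85 for calprotectin, 3.07 for the specific granule, 4.201 for gelatinase and 1.82 for the azurophil genes. The azurophil difference was 0.0245 after quantile normalization and -0.13 after median centring, where Prtn3 stood at -0.14 and Elane and Ctsg at -0.13 (limma adjusted p = 0.0174, 0.021 and 0.0211) and Mpo at -0.12 (0.0804). With bioB and bioC scaling Prtn3 turned to 1.81, and Elane, Ctsg and Mpo stood at 1.82, 1.82 and 1.84. Over all probe sets 10162 changed, 6440 higher and 3722 lower. These numbers were 21020, 20501 and 519 with bioB and bioC scaling, 3086, 1637 and 1449 in the treat test, and 6148 changed and 1610 lower with the stricter filter, which tests fewer probe sets. The authors' deposited table has 17184 changed and 11837 higher. The causes were not tested. The comparison of further probe sets per gene was not run, for want of a pairing of probe sets with genes.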
